A study of Rattus norvegicus with 48 samples.

Results

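Old LCR rats were compared with young LCR rats, all killed at rest, in the extensor digitorum longus, a fast-twitch muscle of the lower leg. The 12 arrays labelled LCR, rest and old (6 arrays) or young (6 arrays) were taken from a series of 48 arrays in 8 groups of 6. In rat physiology LCR and HCR stand for lines selected over generations for low and for high running capacity, but the labels give only these abbreviations. The other groups used here were old and young LCR rats taken after exhausting exercise and old and young HCR rats at rest, again 6 arrays each. The labels call the rats old or young without an age in months and give no treatment other than exercise, no sex, no batch and no pairing between groups. Each array of the 12 names its own animal, so the replicates were separate rats. Whole muscle RNA was measured on an Affymetrix Rat Gene ST 2.1 array, and each value below is a log2 expression level unless it is called a difference, which is old minus young. With bulk RNA, fewer cells of a type and less RNA per cell cannot be told apart.

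Muscle fibres that lose contact with their motor nerve are known to switch on acetylcholine receptor subunits along the whole fibre, together with the myogenic regulator myogenin and genes that slow growth or break down protein. The extracellular matrix of muscle is made mostly by fibroblasts between the fibres and by the tendon cells at its ends, with type I and type III collagen as the main fibrous proteins. Fast and slow fibres differ in the isoforms of myosin, troponin and calcium pump that they make.

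The tissue label was checked against fibre markers. The 5 fast fibre markers tested, among them Myh4, the fast IIb myosin heavy chain, and Actn3, the fast fibre alpha-actinin, averaged between 13.00 and 13.07 in old LCR arrays and between 13.03 and 13.09 in young LCR arrays. None of the 5 differed in limma's test, adjusted or at an unadjusted p below 0.05 (0 of 5). Their means lie near the highest value of the table, 13.64, and whether differences are compressed at that level was not tested. The arrays differed more in liver-made plasma protein transcripts. Alb, the serum albumin gene, was at 11.20 in old replicate 2, 11.03 in young replicate 5 and 9.69 in young replicate 2, and between 4.30 and 8.21 in the other 9 LCR rest arrays. Old replicate 2 also had the highest lower quartile of all values among the 12 arrays (3.24, against 3.10 to 3.16 in the others) and the lowest array weight (0.323). Old replicate 3 stood apart in another way, described with the rises below. Counts are given with and without these arrays.

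Of 9558 genes tested with limma, 861 passed the threshold of 0.05 after Benjamini-Hochberg adjustment, 9.01% of those tested. Old LCR muscle had higher levels for 273 of them (2.86%) and lower levels for 588 (6.15%). At least a 2-fold difference was present for 51 of the higher and 48 of the lower genes, and 2031 genes had an unadjusted p below 0.05. The median difference of all genes was -0.03. The split depended on scaling. Median centring gave 425 higher and 446 lower genes and quantile normalization 427 higher and 504 lower, so that 48.8% and 45.9% of the calls were higher, in place of 31.7%. Without the 3 arrays with the highest Alb the count was 410 (181 higher and 229 lower), of which 388 were among the 861. Without old replicates 2 and 3 it was 850, split evenly with 426 higher and 424 lower. None of the 861 genes changed sign under any alternative in which it was tested. In 61 genes (0.638% of those tested) all old arrays were above all young arrays, and in 237 genes (2.48%) all old arrays were below all young arrays.

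Most tested genes of a list known to respond to loss of the motor nerve rose in old LCR muscle. Of 11 tested genes of the denervation and neuromuscular junction list, 7 rose and none fell, with a median difference of 0.83, against 2.86% of all genes that rose. This list and those below were chosen with earlier results of these data known. Their counts beside the share of all genes are therefore descriptions and not tests. The promoters of the 3 acetylcholine receptor subunit genes that rose are shown because myogenin and its relatives bind E-box motifs in such promoters. Each run is RefSeq sequence on build GRCr8, from 250 bases before to 50 bases after the annotated start site, 5′ to 3′ on the gene's strand, with each CAGCTG in capitals. Chrna1 lies on the minus strand at chr3:78877304-78877603, Chrnb1 on the minus strand at chr10:55015058-55015357 and Chrng on the plus strand at chr9:95325734-95326033.
Chrna1: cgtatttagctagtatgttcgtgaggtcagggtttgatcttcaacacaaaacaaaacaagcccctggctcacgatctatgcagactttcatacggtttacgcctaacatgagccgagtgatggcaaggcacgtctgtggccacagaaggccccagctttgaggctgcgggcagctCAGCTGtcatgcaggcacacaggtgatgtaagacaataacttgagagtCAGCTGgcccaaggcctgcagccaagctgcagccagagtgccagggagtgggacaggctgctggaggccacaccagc
Chrnb1: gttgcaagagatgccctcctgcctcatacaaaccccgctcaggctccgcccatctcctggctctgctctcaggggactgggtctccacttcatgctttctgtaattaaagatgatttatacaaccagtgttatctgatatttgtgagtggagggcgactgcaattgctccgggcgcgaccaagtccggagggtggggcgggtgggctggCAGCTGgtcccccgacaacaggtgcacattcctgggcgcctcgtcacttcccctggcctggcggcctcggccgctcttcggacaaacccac
Chrng: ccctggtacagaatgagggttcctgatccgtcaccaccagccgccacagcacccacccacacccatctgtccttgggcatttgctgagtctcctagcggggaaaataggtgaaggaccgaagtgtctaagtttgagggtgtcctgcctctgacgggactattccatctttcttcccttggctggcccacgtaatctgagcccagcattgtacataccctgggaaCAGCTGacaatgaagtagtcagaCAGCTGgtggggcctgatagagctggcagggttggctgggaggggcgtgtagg
The motif CAGCTG begins 75 and 27 bases before the start site in Chrna1, 41 bases before it in Chrnb1, and 26 and 3 bases before it in Chrng. It reads the same on both strands. Promoters of all 7 risen members were matched by symbol, and 4 of them held the motif, the fourth being Gadd45a. Among all 33469 rat promoters of the same length, 5040 (15.1%) held it. A match is a description of letters and does not show binding.

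Myog, which encodes myogenin, was at 6.37 to 9.11 (median 8.59) in old LCR arrays and at 5.54 to 6.30 (median 6.04) in young LCR arrays. All old arrays were above all young arrays, but old replicate 3, at 6.37, lay just above the highest young array and apart from the other old arrays, which were at 8.11 or more. The difference was 2.28 ± 0.36 (SE, limma adjusted p = 2.48e-05). Chrna1, the alpha subunit of the muscle acetylcholine receptor, was at 7.92 to 11.32 (median 9.91) in old arrays and 7.68 to 8.25 (median 8.01) in young arrays, so the groups overlapped at their edges. Its difference was 1.69 ± 0.39 (adjusted p = 0.00284), a 3.23-fold higher level. Chrng, the gamma subunit of the fetal receptor, had values of 4.17 to 6.98 (median 5.34) in old arrays and 3.57 to 4.46 (median 3.82) in young arrays. It differed by 1.47 ± 0.32 (adjusted p = 0.0014). All 6 young arrays were below 4.54, the value that a gene had to pass in at least 6 of the 48 arrays to be tested, so Chrng passed that filter through other arrays. Chrnb1, the beta subunit, rose by 0.43 (adjusted p = 0.012), whereas Chrne, the subunit of the adult receptor, had a difference of 0.16 (adjusted p = 0.5).

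Gadd45a, a stress-induced gene that is also known to rise in denervated muscle, was at 8.36 to 10.98 (median 10.33) in old arrays and at 7.74 to 8.0 (median 7.82) in young arrays, with no overlap. It rose by 2.22 ± 0.38 (adjusted p = 9.09e-05). Kcnn3, the SK3 potassium channel that appears in denervated fibres, rose by 1.16 ± 0.17 (adjusted p = 7.21e-06), and Hdac4, a histone deacetylase that links nerve activity to myogenin, rose by 0.83 ± 0.17 (adjusted p = 0.000772). The junction genes Rapsn, Dok7 and Lrp4, which anchor and build the receptor clusters, had differences of 0.06, -0.02 and 0.10, none past the threshold. The mean over the 11 members was 8.58, 7.99, 7.30, 7.71, 8.63 and 8.27 in old replicates 1 to 6, and between 7.02 and 7.27 in young arrays. Every old array was above every young array on this mean, with replicate 3 closest to the young range. None of the 9 tested Schwann cell and nerve markers differed in limma's test, adjusted or at an unadjusted p below 0.05 (0 of 9), with a median difference of 0.02.

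Other genes rose by more than the receptor subunits. Gpnmb, a transmembrane glycoprotein of lysosomes and macrophages, was at 6.30 to 10.84 (median 9.61) in old arrays and 5.05 to 6.09 (median 5.72) in young arrays. The groups did not overlap, and the difference was 3.53 ± 0.49, an 11.6-fold higher level (adjusted p = 3.15e-06). None of 10 macrophage markers rose beside it, and their median difference was -0.43. Ampd3, an AMP deaminase known to rise in denervated and wasting muscle, was at 6.51 to 10.17 (median 9.52) in old arrays and 5.08 to 5.92 (median 5.65) in young arrays. Again there was no overlap, and it differed by 3.52 ± 0.47 (11.5-fold, adjusted p = 1.42e-06). Ampd1, the deaminase of adult muscle fibres, fell slightly, by 0.18 on the log2 scale (adjusted p = 0.0416), a call that was lost without any 1 of 8 of the 12 arrays and under both scaling alternatives.

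Sln encodes sarcolipin, an inhibitor of the sarcoplasmic reticulum calcium pump, and was at 6.86 to 11.22 (median 9.44) in old arrays against 5.91 to 7.07 (median 6.28) in young arrays. Its difference was 3.0 ± 0.53 (adjusted p = 0.000146), and old replicate 4 lay within the young range. Th, tyrosine hydroxylase, the rate-limiting enzyme of catecholamine synthesis, was at 3.64 to 9.17 (median 6.84) in old arrays and 3.14 to 4.07 (median 3.68) in young arrays. Old replicate 3 lay within the young range and the other 5 old arrays were above it. The difference of Th was 2.94 ± 0.43 (adjusted p = 8.47e-06). This SE is pooled over all groups, while the old arrays spread more widely than the young ones.

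The remaining named rises were Ankrd1 (2.90), a stretch- and stress-responsive ankyrin repeat protein, Tubb6 (2.68), a beta-tubulin, Cst7 (2.65), the protease inhibitor cystatin F, Eda2r (2.55), the receptor of ectodysplasin A2, Rrad (2.37), a small GTPase that inhibits calcium channels, Rnase17 (2.37), Prrt4 (2.30), Ppp1r14c (2.13), an inhibitor of protein phosphatase 1, and Sdr9c7 (2.11). Their adjusted p-values ran from 1.07e-05 for Cst7 to 0.0329 for Rnase17, whose call was lost without any 1 of 5 arrays. In 5 of the 15 named rises, namely Th, Rnase17, Prrt4, Ppp1r14c and Sdr9c7, every young array was below the filter value. Old arrays were all above young arrays in 9 of the 15. Over all genes the share was 0.638%, but the 15 were chosen by these same arrays, which by itself favours such separation. Old replicate 3 had the lowest old value in 12 of the 15, and in 154 of all 273 higher genes (56.4%). Without it the count of genes past the threshold was 1078.

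**Figure D1:**
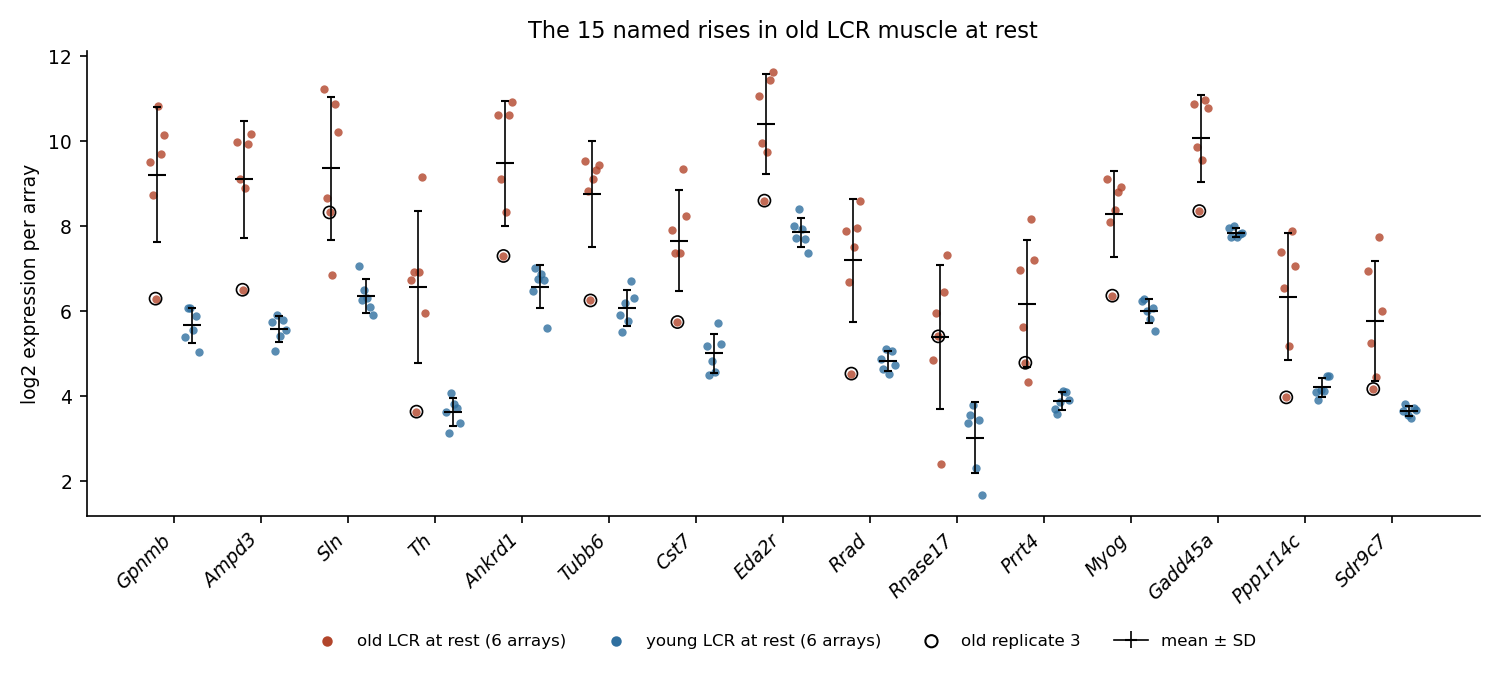
Log2 expression of the 15 named rises in each LCR rest array, old (red, left of each pair) and young (blue, right), with mean ± SD of 6 arrays. The ringed old replicate 3 had the lowest old value in 12 of the 15 genes.

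Genes of muscle stress and turnover rose in smaller numbers. Among 14 tested p53 and senescence genes, 5 rose and none fell, with a median of 0.18, against 2.86% of all genes that rose. Beside Eda2r and Gadd45a these were Cdkn2b (1.26 ± 0.29, adjusted p = 0.00254), an inhibitor of cyclin-dependent kinases, Phlda3 (0.93 ± 0.17, adjusted p = 0.000158), a p53 target that restrains Akt, and Rb1 (0.29), whose call was lost without old replicate 1 or 5. The calls of Cdkn2b and Rb1 were lost when only the 12 arrays compared were fitted. That of Cdkn2b was also lost without the 3 arrays with the highest Alb. Of 12 ubiquitin ligases and FoxO atrophy genes, 3 rose and none fell, again against 2.86%. Trim63, the muscle ligase MuRF1, was at 9.91 to 10.86 (median 10.74) in old arrays and 9.91 to 10.15 (median 10.06) in young arrays, and old replicate 3 was its lowest value. It rose by 0.58 ± 0.12 (adjusted p = 0.000965), with smaller rises of Fbxo30 (0.41) and Trim55 (0.32). Trim55 lost its call without any 1 of 9 of the 12 arrays and Fbxo30 without any 1 of 4, so that the list's count of 3 went down to 1. Fbxo32, the ligase atrogin-1, had a difference of 0.26 (adjusted p = 0.27). Of 26 proteasome subunits 1 rose, Psma4 (0.22), with a median over the list of 0.13. This count was 0 to 5 with single arrays left out and 9 with quantile normalization or median centring.

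In the autophagy and lysosome list 4 of 17 genes rose and 1 fell, against 2.86% of all genes that rose and 6.15% that fell. The same shares apply to the other lists of this paragraph. The proteases cathepsin L (Ctsl, 1.04 ± 0.15, adjusted p = 3.93e-06) and cathepsin B (Ctsb, 0.34) rose with Gpnmb and the autophagosome gene Gabarapl1 (0.38), and Ctsk, cathepsin K, fell by 0.58 on the log2 scale, a call lost without any 1 of 3 arrays. Mt2A, a metallothionein that binds zinc and copper, was at 4.41 to 7.79 (median 6.64) in old arrays and 4.15 to 4.97 (median 4.42) in young arrays, with overlap at the low end. It rose by 2.04 ± 0.39 (adjusted p = 0.000302), 1 of 3 rises among 17 metallothionein and antioxidant genes (1 to 4 with single arrays left out). Of 16 chaperones, 3 rose, the small heat shock genes Hspb8 (0.84), Hspb1 (0.48) and Cryab (0.45). Hspb1 lost its call without any 1 of 8 arrays and Cryab without young replicate 6, and both lost it when only the 12 arrays compared were fitted. Of 14 targets and members of the integrated stress response, Fgf21, a secreted metabolic hormone, rose by 0.90, and Chac1, a glutathione-degrading enzyme, and Atf4, the transcription factor of the response, fell by 1.07 and 0.19 on the log2 scale. The call of Atf4 was lost without any 1 of 8 arrays.

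Among 8 genes of developing or regenerating fibres 3 rose, Ankrd1, the myosin-binding protein Mybph (1.31) and Igfn1 (1.25), against 2.86% of all genes. Mybph lost its call without any 1 of 8 arrays and Igfn1 without old replicate 5 or 6, and the count was 1 when only the 12 arrays compared were fitted. Myh3, the embryonic myosin heavy chain, had a difference of -0.35 (adjusted p = 0.76). Of 9 myogenic and satellite cell genes, Myf6, the myogenic factor of mature fibres, rose by 0.54 ± 0.13, and Myod1 and Myf5 had differences of 0.20 and 0.08.

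In the antigen presentation list 3 of 18 genes rose, against 2.86% of all genes. B2m, the light chain of class I molecules, was at 11.18 to 12.15 (median 11.82) in old arrays against 10.48 to 11.03 (median 10.78) in young arrays, a difference of 1.0 ± 0.14 (adjusted p = 6.15e-06). Nlrc5, the class I transactivator, differed by 1.30 ± 0.22 without overlap, and Psmb8, an immunoproteasome subunit, by 0.65, a call lost without any 1 of 5 arrays. Nfkb2 and Relb, partners in the non-canonical NF-kappaB pathway, rose by 1.16 and 0.50 and C1r, a complement protease, fell by 0.47 on the log2 scale, among 16 complement and inflammatory genes. Irf7 was the 1 gene of 15 in the interferon list that rose (0.60), and Myc the 1 of 22 immediate early genes (0.57). The calls of Relb and Myc were lost without any 1 of 8 arrays, that of Irf7 without any 1 of 7 and that of C1r without old replicate 2 or young replicate 5. No macrophage marker rose, and 3 of 10 fell, Cd14 (-0.76), Csf1r (-0.64) and Lyve1 (-0.64), against 6.15% of all genes that fell. Csf1r and Lyve1 lost their calls without old replicate 2, and Lyve1 also without any 1 of 4 other arrays. Of 3 tested T and NK cell markers, Nkg7 rose (0.87) and Cd4, which macrophages also carry in the rat, fell (-0.85), a call lost without old replicate 2 or young replicate 5. Of 4 mast cell markers, Cpa3 fell (-0.94). No neutrophil marker of the 7 on the array passed the filter on low values, and none of 3 B and plasma cell markers differed in limma's test, adjusted or at an unadjusted p below 0.05.

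Most collagen and matrix genes fell in old LCR muscle. Of 26 tested genes of the collagen and extracellular matrix list, 21 fell and none rose, with a median of -0.73, against 6.15% of all genes that fell. In 14 of the 26 every old array was below every young array, against 2.48% of all genes tested. Col1a1, the alpha-1 chain of type I collagen, was at 7.21 to 8.27 (median 7.77) in old arrays and 10.18 to 11.14 (median 10.49) in young arrays. Its difference was -2.81 ± 0.25, a 6.99-fold lower level (adjusted p = 2.46e-10), and its partner chain Col1a2 differed by -2.48 ± 0.24 (adjusted p = 1.05e-09). Lox and Loxl2, which cross-link collagen, differed by -1.61 and -1.32, Sparc, a collagen-binding glycoprotein, by -1.20 ± 0.11 (adjusted p = 4.59e-10), and Lum, the proteoglycan lumican, by -1.33. Col3a1, type III collagen, fell by 1.08 and Dcn, decorin, by 1.02, both without overlap. Timp1, Bgn, Loxl1, Ccn2 and Postn were not past the threshold, and their differences were -0.10, 0.04, -0.20, -0.21 and -0.85. The count was 18 without old replicate 2 and 16 without the 3 arrays with the highest Alb.

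Tendon markers had the largest median difference of the lists tested, at -1.93 over 9 genes, of which 6 fell, against 6.15% of all genes. Kera, keratocan, a small leucine-rich proteoglycan, was at 3.95 to 8.08 (median 4.82) in old arrays and 8.38 to 9.81 (median 9.02) in young arrays. It fell by 3.48 on the log2 scale (SE 0.45, adjusted p = 1.16e-06). Chad, chondroadherin (-3.03), Fmod, fibromodulin (-2.49), Tnmd, tenomodulin (-2.10), Thbs4, a thrombospondin (-1.93), and Cilp2 (-1.17) fell as well. Scx and Mkx, transcription factors of tendon cells, and Prg4, lubricin, had differences of 0.17, 0.08 and -0.07, none past the threshold.

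The tendon mean was 6.94, 5.75, 5.99, 5.71, 5.64 and 7.23 in old replicates 1 to 6 and 7.15 to 8.34 in young arrays, so that replicate 6 reached the young range and replicate 1 came near it. Old replicate 6 had the highest old value in 11 of the 15 named falls. On the collagen and matrix mean, the old arrays (6.83 to 7.64) and the young arrays (7.92 to 8.35) did not overlap. Fibroblast markers moved with the collagens: 7 of 8 fell, with a median of -0.97, against 6.15% of all genes that fell. Of these 8 genes 4, Col1a1, Col3a1, Dcn and Lum, are also on the matrix list. Of the 4 that are not, 3 fell, with a median over the 4 of -0.60: Pdgfra (-0.68), the receptor that marks fibro-adipogenic progenitors, Cd34 (-0.51), a surface marker of progenitor cells and endothelium, and Dpt (-0.92). Old arrays averaged 7.44 to 8.42 and young arrays 8.87 to 9.28 on that list. The parts of tendon and of fibroblast content in the collagen falls were not tested.

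The other named falls belonged to neither the tendon nor the matrix list. Angptl7, a secreted angiopoietin-like protein, differed by -3.48 ± 0.46 (adjusted p = 1.26e-06), with values of 5.32 to 8.65 (median 6.02) in old arrays and 9.13 to 10.62 (median 10.07) in young arrays. Further ones were Adamts8 (-1.90), a secreted metalloproteinase, Chrdl1 (-1.78), an antagonist of bone morphogenetic proteins, and P3h2 (-1.52), a collagen prolyl hydroxylase. A second probe set of Adamts8 differed by -0.12. Tfrc, the transferrin receptor that brings iron into cells, was at 7.77 to 8.67 (median 8.26) in old arrays and 9.68 to 9.98 (median 9.84) in young arrays. The groups were far apart and the difference was -1.57 ± 0.16 (adjusted p = 1.71e-09), a 2.96-fold lower level. Of 18 genes of TGF-beta and BMP signalling 2 fell and none rose, against 6.15% of all genes that fell. These were Bmp4 (-0.58) and the activin receptor Acvr2a (-0.33), and Acvr2a lost its call without old replicate 2.

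**Figure D2:**
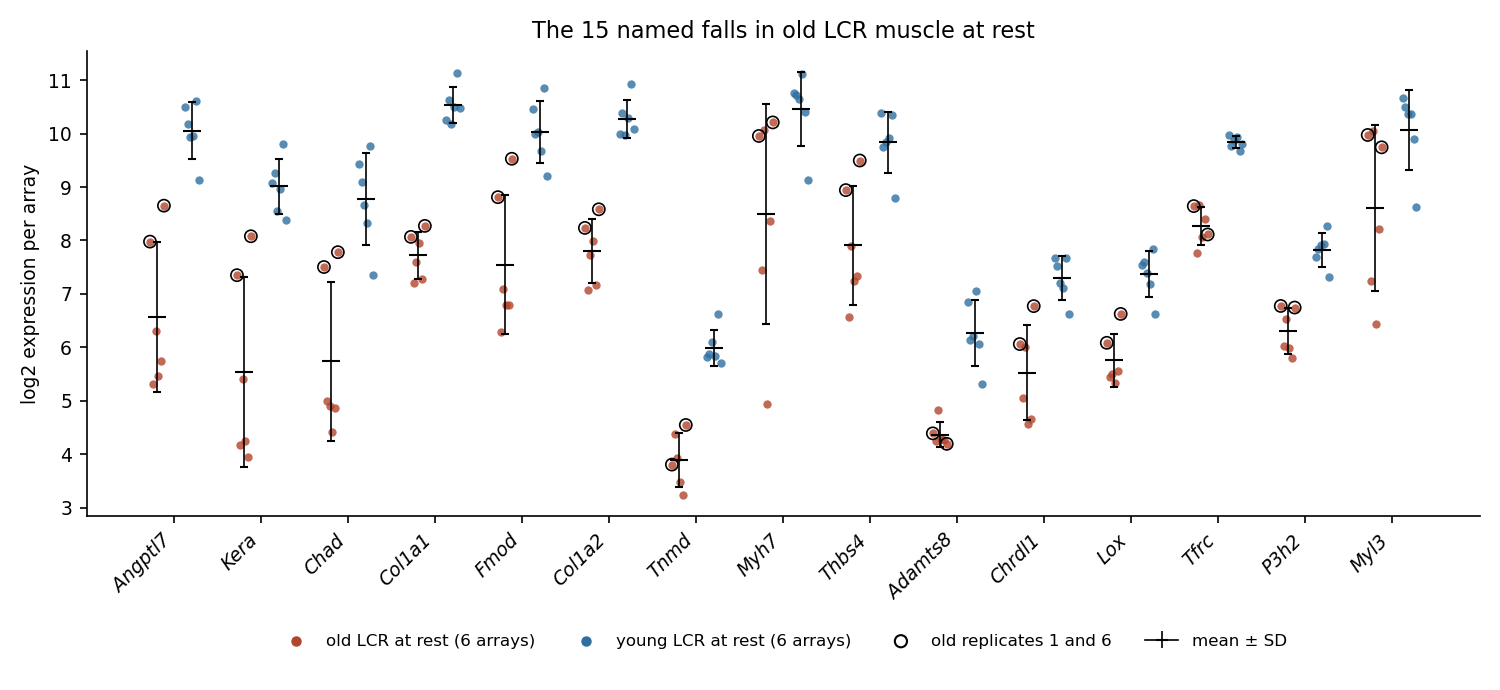
Log2 expression of the 15 named falls in each LCR rest array, old (red, left of each pair) and young (blue, right), with mean ± SD of 6 arrays. Old replicates 1 and 6 are ringed, and replicate 6 had the highest old value in 11 of the 15 genes.

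Slow fibre genes were lower in old LCR muscle, with a wide spread between rats. Of 6 tested slow fibre markers 5 fell, against 6.15% of all genes, and the median was -1.33. Myh7, the slow myosin heavy chain, was at 4.94 to 10.21 (median 9.16) in old arrays and 9.13 to 11.11 (median 10.68) in young arrays. The old arrays ran from far below the young range to within it, and the difference was -1.97 ± 0.52 (adjusted p = 0.0108). Myl3, the slow myosin light chain (-1.46), Tnnt1 and Tnnc1, slow troponins (-1.34 and -1.32), and Atp2a2, the slow calcium pump (-0.97), also passed the threshold. The list mean was 9.19, 7.31, 9.14, 6.48, 8.03 and 9.21 in old replicates 1 to 6, against 8.35 to 9.82 in young arrays, with replicates 2 and 4 lowest. No slow fibre gene passed without old replicate 4, and 1 passed without old replicate 2. When only the 12 arrays compared were fitted, none passed (all 48 arrays, at an unadjusted p below 0.05: 5 of 6).

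**Figure D3:**
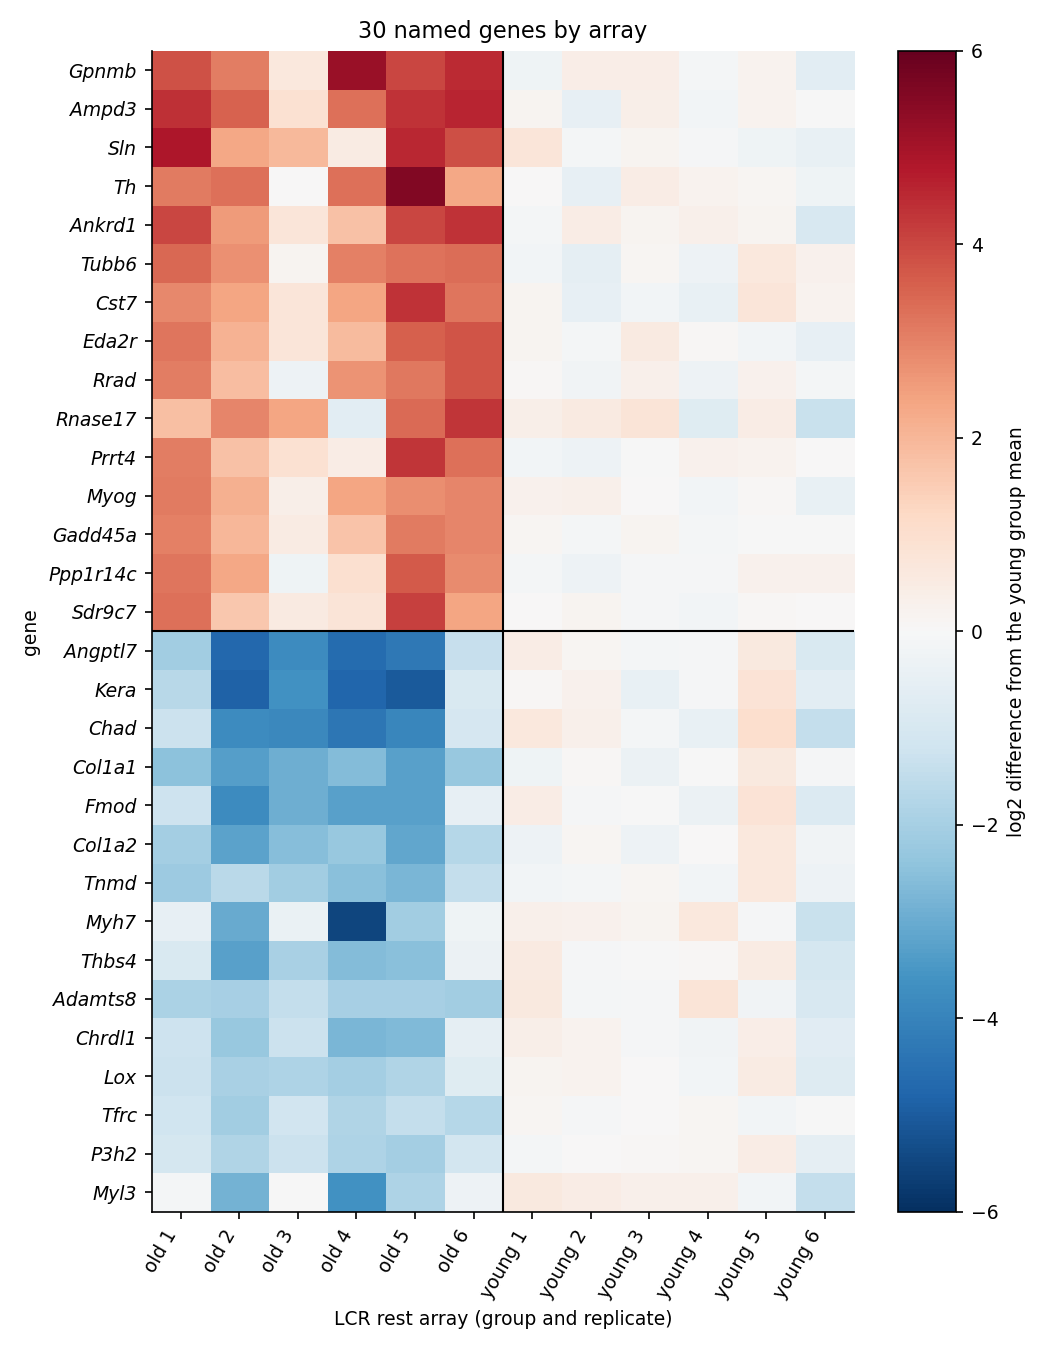
Log2 difference of each LCR rest array from the mean of the 6 young LCR rest arrays for the 15 named rises (upper block) and 15 named falls (lower block), old replicates 1 to 6 at the left and young replicates 1 to 6 at the right. Old replicate 3 is pale in most rises, old replicate 6 is pale in many falls, and old replicates 2 and 4 are darkest for Myh7 and Myl3.

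Energy metabolism gave few calls. Over all genes 9.01% passed (2.86% rose and 6.15% fell), and 2031 of 9558 were at an unadjusted p below 0.05 in limma's test. None of 45 oxidative phosphorylation subunits passed the limma threshold, with 2 at an unadjusted p below 0.05 and a median of -0.07. The largest differences were those of Sdhc (-0.19, adjusted p = 0.0987) and Ndufa9 (-0.18, adjusted p = 0.165). None of 14 citric acid cycle genes passed either, with 4 at an unadjusted p below 0.05 and a median of -0.07. With single arrays left out, 0 to 3 of these 14 genes fell past the threshold, and 0 to 2 of the 45 subunits. Of 28 genes of fatty acid uptake and oxidation 0 passed and 3 were at an unadjusted p below 0.05, with a median of 0.06. Pdk4, a pyruvate dehydrogenase kinase, differed by 0.37 ± 0.37. Of 13 glycolysis and glycogen genes, Pfkfb1, which makes the activator of phosphofructokinase, rose by 0.41 (a call lost without any 1 of 7 arrays) and Slc2a4, the insulin-responsive glucose transporter, fell by 0.33 on the log2 scale. In the polyamine list Azin1 rose by 0.34 (lost without any 1 of 5 arrays) and Amd1, which makes the aminopropyl donor, fell by 0.48 on the log2 scale. Kcna7, a potassium channel, fell by 0.41 on the log2 scale in the list of calcium handling and excitation.

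Of 11 clock genes, Dbp, an output gene, rose by 1.15, and Nfil3, Bmal1 and Npas2 fell by 0.83, 0.82 and 0.65 on the log2 scale. Over all genes 2.86% rose and 6.15% fell. The labels give no hour of collection, so time of day was not tested. Among remaining cell type markers, Cidea, a lipid droplet protein, was the 1 of 9 adipocyte genes that rose (1.33), Tie1 the 1 of 8 endothelial genes that fell (-0.33, a call lost without any 1 of 7 arrays), Pdgfrb the 1 of 5 smooth muscle and pericyte genes that fell (-0.47), and Hba-a1 the 1 of 2 erythroid genes that fell (-0.91). None of 13 liver plasma protein genes differed in limma's test, adjusted or at an unadjusted p below 0.05.

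The same comparison in HCR rats at rest gave 323 genes past the threshold, 3.38% of those tested, 165 higher and 158 lower. It had 1664 of 9558 genes at an unadjusted p below 0.05 in limma's test. It used other arrays and shared only the estimate of residual spread. Of the 273 genes higher in old LCR muscle, 26 were also higher in old HCR muscle (9.52% of the LCR list and 15.8% of the HCR list), against a background of 1.73%. Of the 588 lower genes, 87 were also lower (14.8% of the LCR list and 55.1% of the HCR list), against 1.65%. The sign was shared by 234 of the 273 and by 510 of the 588. Over all 9558 genes the differences in both lines had a Pearson r of 0.511, which is across genes and carries no test.

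Most of the named falls passed in HCR rats, and no named rise did. Of the 15 named falls 12 also fell in old HCR muscle, among them Kera (-2.83), Angptl7 (-2.68), Col1a1 (-1.78) and Tfrc (-1.34). None of the 15 named rises passed in HCR rats, where their differences ran from -0.12 to 1.41 with a median of 0.48. They were chosen by their LCR values at rest, which by itself enlarges their LCR differences. Old HCR replicates 2 and 3 both lay above every young HCR array in the named rises except Sln, Th, Eda2r and Rnase17. Ampd3 was at 8.44 and 7.79 in these arrays (5.58 to 6.39 in young HCR rats) and Myog at 7.72 and 7.45 (5.93 to 6.56). On the denervation list no gene passed in HCR rats (1 of 11 at an unadjusted p below 0.05), the median was 0.12, and the array means were 7.19 to 7.66 in old and 7.08 to 7.28 in young HCR rats. The collagen and matrix list had 7 falls in HCR rats (median -0.36), the tendon list 6 (median -1.13) and the slow fibre list none (median -0.02, 0 of 6 at an unadjusted p below 0.05). Over all genes 1.65% fell in HCR rats. Immediate early genes had 7 rises of 22 in HCR rats, against 1.73% of all genes that rose. Fos, a subunit of the AP-1 transcription factor, differed by -0.06 in LCR rats and by 1.88 in HCR rats, and Atf3 by 1.72 and Egr1 by 1.42 in HCR rats. These 3 HCR calls were lost when only the 12 HCR rest arrays were fitted, and that of Egr1 also without any 1 of 8 of them.

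Whether the age difference itself differed between the lines was tested as an interaction, LCR minus HCR. Only 6 of 9558 genes passed, 0.0628%, with 966 at an unadjusted p below 0.05. Th had the largest value, 3.05 ± 0.61 (adjusted p = 0.0308): it averaged 6.56 ± 1.79 in old and 3.62 ± 0.33 in young LCR muscle and 3.30 ± 0.52 in old and 3.41 ± 0.31 in young HCR muscle (SD, n = 6 each, limma). Kcnq5, a potassium channel (1.01), and Tcp11l1 (0.86) were the other higher genes (3 in all, 0.0314% of those tested). Lmod1, leiomodin (-0.98), Sparc (-0.80) and Tekt1 (-1.47) were the 3 lower ones (0.0314%). In every HCR rest array Th (2.72 to 4.12) and Tekt1 (3.06 to 3.81) were below the filter value of 4.54. Th passed that filter mainly through old LCR rest arrays, the group where it was high. The adjusted p was 0.133 for Gpnmb, 0.0777 for Ampd3, 0.181 for Myog, 0.11 for Chrna1 and 0.261 for Col1a1, so a difference between the lines was not shown for these. No denervation gene passed, but 7 of 11 were at an unadjusted p below 0.05. So were 12 of 26 matrix genes (1 passed), 1 of 9 tendon markers and 3 of 6 slow fibre markers. The count of 6 ran from 0 to 77 when single arrays were left out, 77 without old LCR replicate 3, 0 without old LCR replicate 5 and also without any 1 of 8 other arrays. With each of the 24 arrays left out in turn, Th lost its call 11 times, Kcnq5 16, Tcp11l1 18, Lmod1 10, Sparc 12 and Tekt1 13 times. All 6 calls were lost when only the arrays compared were fitted, and also with no filter.

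**Figure D4:**
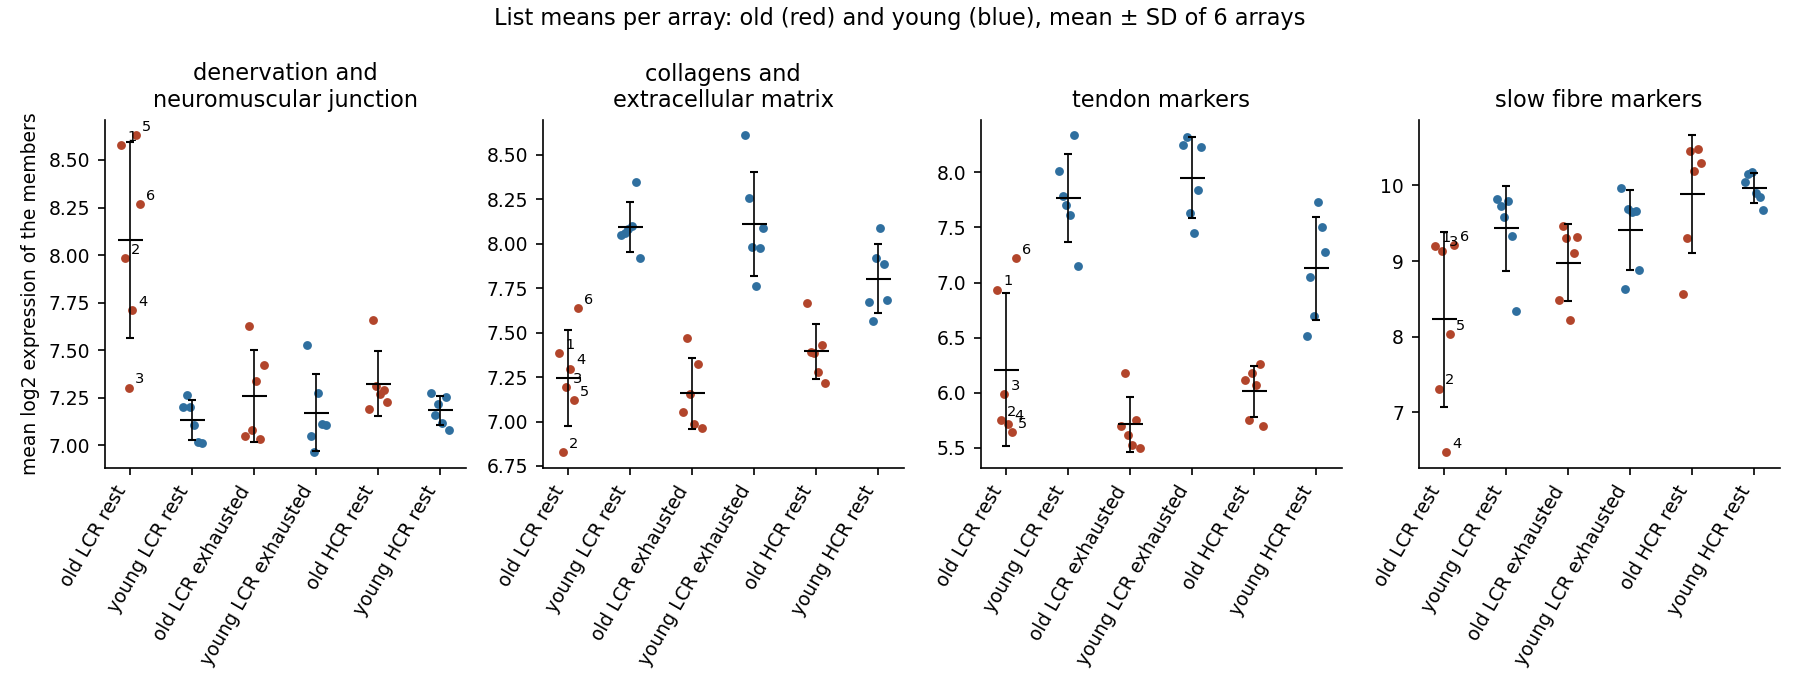
Mean log2 expression of the members of 4 gene lists in each array, old (red) left of young (blue) for LCR rats at rest, LCR rats after exhaustion and HCR rats at rest, with mean ± SD of 6 arrays and replicate numbers beside the old LCR rest arrays. The denervation mean is at 7.30 to 8.63 in old LCR rest arrays and at 7.02 to 7.27 in young LCR rest arrays, and the group means of the tendon and matrix lists are lower in old than in young rats in all 3 settings.

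After exhausting exercise, old and young LCR rats differed in 491 genes (5.14%), 72 higher and 419 lower. At an unadjusted p below 0.05 in limma's test there were 1649 of 9558 genes. The exhausted rats were other rats of the line. Of the 588 genes lower in old LCR muscle at rest, 231 were also lower after exhaustion (39.3% of the rest list and 55.1% of the exhausted list), against a background of 4.38%. Of the 273 higher genes, 14 were also higher (5.13% and 19.4%), against 0.753%, and Relt, a receptor of the tumour necrosis factor family, passed in the opposite direction. The median difference of the 588 was -0.47 at rest and -0.29 after exhaustion, and that of the 273 was 0.55 at rest and 0.07 after exhaustion. Both sets, like the named rises and falls, were chosen by their values at rest, which by itself enlarges their differences at rest. Across all 3 comparisons 7 genes were higher and 61 lower.

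Collagen and tendon genes also fell with age after exhaustion. Of 26 matrix genes 23 fell (median -0.84), as did 6 of 9 tendon markers (median -2.38), against 4.38% of all genes. Col1a1 differed by -2.71. Of the 15 named rises only Cst7 passed after exhaustion (1.66, adjusted p = 0.0063), and the other 14 ran from -0.31 upward, with a median over the 15 of 0.22. No denervation gene passed (1 of 11 at an unadjusted p below 0.05), and the median was 0.05. The denervation mean was 7.03 to 7.63 in old and 6.97 to 7.53 in young exhausted rats. Young exhausted replicate 1 alone gave the 7.53, and the other 5 young exhausted arrays were at 6.97 to 7.27. That array had the highest young exhausted value in 11 of the 15 named rises, with Ankrd1 at 11.49 (5.76 to 7.08 in the other young exhausted arrays), Prrt4 at 7.34 (3.97 to 4.39) and Ampd3 at 7.77 (5.77 to 6.01). Without it Cst7 was still the 1 named rise that passed and no denervation gene passed, while the median difference was 0.53 over the 15 named rises and 0.12 over the denervation list. Gpnmb averaged 9.21 ± 1.59 in old and 5.68 ± 0.41 in young rats at rest, against 6.45 ± 0.29 in old and 6.44 ± 0.65 in young exhausted rats (SD, n = 6 each).

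The test of rest minus exhaustion, which shares its rest arrays with the comparison at rest, gave 39 genes (0.408%), 28 higher and 11 lower. At an unadjusted p below 0.05 in limma's test there were 986 of 9558 genes. Among the named rises, 5 passed, namely Gpnmb (3.52 ± 0.69, adjusted p = 0.0104), Ampd3 (3.34 ± 0.66, adjusted p = 0.0104), Th (2.72), Rrad (2.68) and Myog (2.10). Without young exhausted replicate 1, Gpnmb (3.27) and Ampd3 (3.02) passed (adjusted p = 0.0383 for both), and Th, Rrad and Myog did not. With each of the 24 arrays left out in turn, Gpnmb and Ampd3 passed every time, whereas Th lost its call 7 times, Myog 17 times and Rrad 20 times. By the smallest p the higher genes were led by Relt (1.19), Pvr, the poliovirus receptor (1.56), Mt2A (2.88), Ctsl (1.07) and Gpnmb, and the lower genes by Tekt1 (-1.60), Mterf1-ps1 (-0.61), Plcl2 (-0.63), Angpt1 (-0.54) and Sema7a (-0.83). Sema7a lost its call without any 1 of 16 of the 24 arrays, Angpt1 of 14, Plcl2 of 9 and Mterf1-ps1 of 2. When only the 24 arrays compared were fitted the count was 2, and of these 10 leading genes Pvr alone passed. Of the denervation list 2 genes passed, Myog and Kcnn3 (1.11), but none did without young exhausted replicate 1. With all arrays 7 of its 11 genes were at an unadjusted p below 0.05. None of the matrix, tendon or slow fibre genes passed with all arrays (2 of 26, 2 of 9 and 1 of 6 at an unadjusted p below 0.05). Tfrc differed between the states (-0.90, adjusted p = 0.0486), where its age difference was -1.57 at rest and -0.67 after exhaustion, but this call was lost without any 1 of 22 of the 24 arrays. The count ran from 9 to 145 when single arrays were left out, 145 without old LCR rest replicate 3 and 9 without young LCR exhausted replicate 1.

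**Figure D5:**
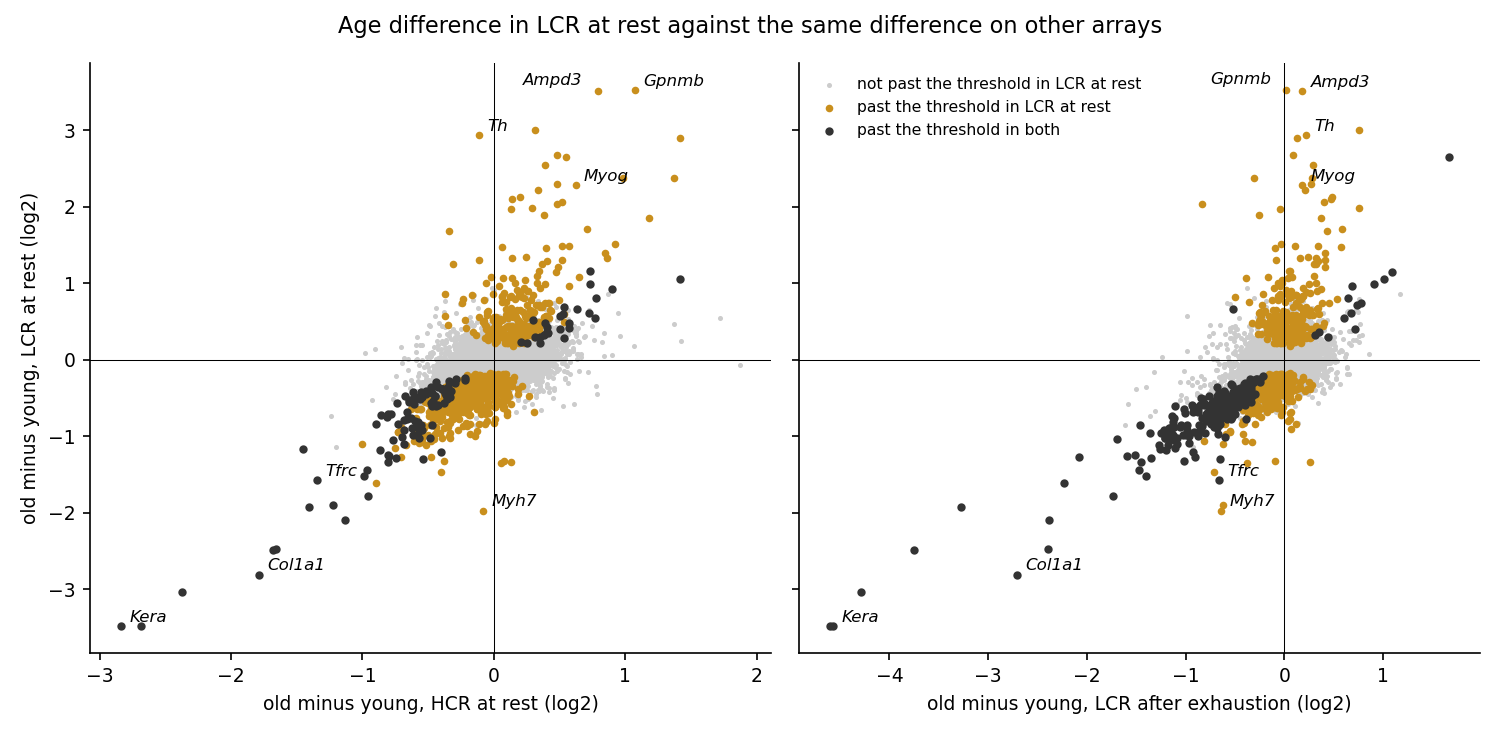
Old minus young log2 difference of 9558 genes in LCR rats at rest (vertical) against the same difference in HCR rats at rest (left, horizontal) and in LCR rats after exhaustion (right, horizontal). The falls Kera and Col1a1 are negative on both axes, while Gpnmb, at 3.53 in LCR rats at rest, is at 1.07 in HCR rats and 0.01 after exhaustion.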

How the data were processed

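Rat Gene ST 2.1 arrays were hybridised with biotinylated cDNA from total RNA, per the labels' protocols. The authors deposited 1 log2 expression value per probe set and array. Expression Console is named in the design text. Per the submitters' processing notes, oligo and RMA were used, with roles and versions not given in the sources used here. The values were used without further scaling. The table held 36685 probe sets, of which 14824 named 1 gene in the platform annotation, 829 several and 21032 none. Symbols were updated to RefSeq (14670 by Entrez ID, 89 by symbol, 65 unmatched). The brightest probe set stood for each of 14557 genes, 234 of which had several. Testing was limited to genes that exceeded 4.54 (the table's median value) on 6 or more arrays, which kept 9558 and dropped 4999.

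limma 3.58.1 in R 4.3.3 fitted a mean for each of 8 groups over 48 arrays (residual df 40), with eBayes and Benjamini-Hochberg adjustment per comparison, two-sided. A simulation of the comparison at rest in LCR rats, with 200 of 9558 genes changed, recovered 64.2%, 98.5% and 100% at log2 changes of 0.5, 1 and 2, with 7 false calls of 182. It drew independent noise with the same spread of a gene in every group. The old LCR rest arrays spread more in many named genes, and whole arrays stood apart. The simulated rates therefore check the code and need not hold for these data. Arrays of a group correlated at 0.963 to 0.987, and their number limits the precision. Named genes were the 15 largest rises and falls past the threshold with at least 5 of 6 old arrays on that side of the young median, the 3 largest per direction in each other comparison, up to 5 per direction and interaction by smallest p, and up to 6 members of each list past the threshold (2 otherwise). Predicted genes and unnamed loci, recognised by their symbols, were kept out of the largest rises and falls named but not out of the counts. Lists and members were chosen with earlier results of these data known. Other members are named where a sentence lists those not past the threshold, chosen after their values were seen. Alternatives were the scaling, filter, probe set rule, moderation, array weights, fitted arrays and arrays left out.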

Additional observations from a re-analysis of the deposited data

Results flagged for a closer look

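In the 2 LCR rest groups, 224 pairs of a named gene and a group were checked for 1 array far from the other 5. The measure was its gap relative to the group's range, and 17 of the 224 pairs were found. Chance gives about 5% of independent pairs, but these pairs share arrays, and an excess over chance was not tested. Old replicate 3 was the array in 5 of the 17, with Ampd3 at 6.51 (8.91 to 10.17 in the others), Tubb6 at 6.25, Myog at 6.37, Trim63 at 9.91 and Adamts8 at 4.82. Old replicate 2 was high for the liver plasma protein genes Gc (6.78) and Fgg (6.11), and old replicate 5 was low for Mal (5.33). Young replicate 6 was low for the slow fibre genes Myh7 (9.13), Myl3 (8.63) and Atp2a2 (8.67) and high for Chrng (4.46). Young replicate 5 was high for Sparc (10.96) and Loxl2 (6.99). Single young arrays were high for Rb1 (9.71), Chac1 (8.68) and Sdhc (11.18).

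With all arrays, the genes below passed limma's interaction test of the age difference between lines or between states at an adjusted p below 0.05. Between the lines at rest, LCR minus HCR, these were Th (3.05), Kcnq5 (1.01), Tcp11l1 (0.86), Lmod1 (-0.98), Sparc (-0.80) and Tekt1 (-1.47). Each of these 6 calls was lost without any 1 of 10 or more of the 24 arrays. Between rest and exhaustion in LCR rats, the higher ones were Gpnmb (3.52), Ampd3 (3.34), Mt2A (2.88), Th (2.72), Rrad (2.68), Myog (2.10), Pvr (1.56), Relt (1.19), Kcnn3 (1.11), Nfkb2 (1.10), Ctsl (1.07), Tcp11l1 (0.86), Trim63 (0.81), Myf6 (0.78) and Ctsb (0.58). The lower ones were Tekt1 (-1.60), Tfrc (-0.90), Sema7a (-0.83), Plcl2 (-0.63), Tie1 (-0.61), Mterf1-ps1 (-0.61) and Angpt1 (-0.54). With each of 24 arrays left out in turn, several of these state calls were lost, among them Tfrc 22 times, Rrad 20 and Myog 17. Gpnmb and Ampd3 kept theirs every time.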

How the results depend on the processing

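The count of 861 genes in LCR rats at rest was 439 when only the 12 arrays compared were fitted and 410 without the 3 arrays with the highest Alb, an alternative chosen after seeing the data. It was 630 to 1078 with single arrays left out, and between 669 and 957 under the other alternatives. The HCR count of 323 was 177 with only the arrays compared, 188 with no filter and 123 to 327 with single arrays left out, and the exhausted count of 491 was 328 to 503 with single arrays left out. The line interaction count of 6 was 0 in limma with only the arrays compared (943 at an unadjusted p below 0.05), 0 with no filter (1164), 13 with quantile normalization, 16 with a stricter filter, 70 with array weights, 18 with trend and robust moderation, 24 without the 3 arrays with the highest lower quartile, 2 without the 3 highest in Alb, 121 without old LCR replicates 2 and 3 (also chosen after seeing the data), and 0 to 77 with single arrays left out. In the same order of settings, the state interaction count of 39 was 2 with only the arrays compared, 17 with no filter, 68 with a stricter filter, 112 with array weights, 74, 25 and 212 without those arrays, and 9 to 145 with single arrays left out. The cause was not tested. Of 3394 named-gene values under alternatives, 2938 kept direction and side of the threshold, 448 lost the call, 4 gained it and 4 turned sign, none of them past the threshold: Mzb1 (0.033 without the arrays highest in Alb) and Pax5 (0.06 with all arrays, -0.036 to 0.118 with single arrays left out, -0.036 without old replicate 2, alone or with the other arrays of high lower quartile, and -0.017 without old replicates 2 and 3). Of 98 named genes past the threshold in LCR rats at rest, 67 stayed so without any 1 of the 12 arrays. Several of the 67 lost their calls without the 3 arrays with the highest Alb, among them Cdkn2b, Nkg7, Cpa3, Pdgfra, Pdgfrb, Bmp4, Npas2 and Amd1. No paired analysis was possible because the labels give no replicate numbers shared between groups. No background or detection values were used here, so whether low values lie above background is not known.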
